A study of Arabidopsis thaliana with 18 samples.

Results

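The aquaporin family of Arabidopsis thaliana was followed through 18 RNA sequencing libraries of whole seedlings. The members are the 35 genes of the PIP1, PIP2, TIP, NIP and SIP subfamilies, chosen by gene identifier from the 32833 genes of the count tables, and no expression value entered the choice. They comprise 5 PIP1, 8 PIP2, 10 TIP, 9 NIP and 3 SIP genes. All seedlings were of the Col-0 ecotype and were kept at 20 °C under continuous light on a soaked gel medium of pH 4.2 for 84 h after sowing. The 3 genotypes were wild type, als3-1 and sog1-7, each with 0 or 1.5 mM AlCl3, which gives 6 groups of 3 libraries. ALS3 encodes a transporter-like membrane protein needed for aluminium resistance, and als3-1 seedlings are hypersensitive to aluminium. SOG1 is the transcription factor of the plant DNA damage response, and sog1-7 is a loss-of-function mutant that the study describes as aluminium tolerant. The study compared als3-1 with sog1-7 under aluminium to find targets of SOG1 linked to the stop of root growth. The labels number the replicates of a group 2, 3 and 4 and name no separate cultures for them. The p-values therefore rest on the spread among libraries, which may be technical.

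Aquaporins are membrane channels that let water, and in some members small uncharged solutes, cross membranes along their gradients. PIPs sit in the plasma membrane, where PIP2 proteins carry most of the water permeability of root cells and help PIP1 proteins to reach the membrane. TIPs sit in the membrane of the vacuole, and some of them also pass ammonia or urea. NIPs carry boric acid, arsenite, lactic acid and other small solutes, among them NIP1;2, which moves aluminium malate across the plasma membrane of root cells. SIPs lie in the membrane of the endoplasmic reticulum. In whole seedlings a lower level of a transcript in bulk RNA can come from fewer cells of a type or from less RNA per cell, and these libraries cannot tell these apart.

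The libraries held 25561124 to 44572947 counted reads, so that 3 counts corresponded to 0.0673 to 0.117 CPM (counts scaled to the size of the library). CPM values below use the trimmed mean of M-values (TMM) scaling of edgeR and are given in the order of replicates 2, 3 and 4. A pair of libraries stood apart for this family. In wild type 1.5 mM replicate 2 and als3-1 0 mM replicate 2, the 7 TIP genes that passed the filter on low counts lay at a median of −1.49 and −1.98 log2 CPM units from the other 2 libraries of their group, while the median of all genes lay at 0.0358 and 0.0127. The 13 PIP genes lay at −0.646 and −0.960. Across 17705 genes these differences had a Pearson r of −0.420 and −0.415 with the GC content of the exons, a description over genes that are not independent. The exons of the TIP genes had a median GC content of 44.57%, against 41.08% over all genes tested. In every group replicate 2 was the lowest library for 20 to 24 of the 30 members tested, against 35% to 41.1% of all genes, and among 13 root markers replicate 2 was the lowest library for 4 to 7 in each group. Replicate 2 of als3-1 at 1.5 mM and of sog1-7 at 0 and 1.5 mM had 0.0168% to 0.0285% of their counts in ribosomal RNA genes, against 0.909% to 5.71% in the others. ALS3 was at 2.56 to 7.88 CPM in als3-1 and 3.07 to 7.87 CPM in wild type, and SOG1 at 15.1 to 19.5 CPM in sog1-7 and 13.6 to 19.0 CPM in wild type, so transcript levels do not check the mutant labels. The part of these differences in the results was not tested, and aquaporin genes whose edgeR call changes without both libraries that stood apart are given both ways. The main fit does not use the replicate numbers, so a difference shared by replicates of the same number stays in its spread. A fit with a replicate block called more members, as given in the last section. A member said below not to be called was thus not called without the block only.

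**Figure D1:**
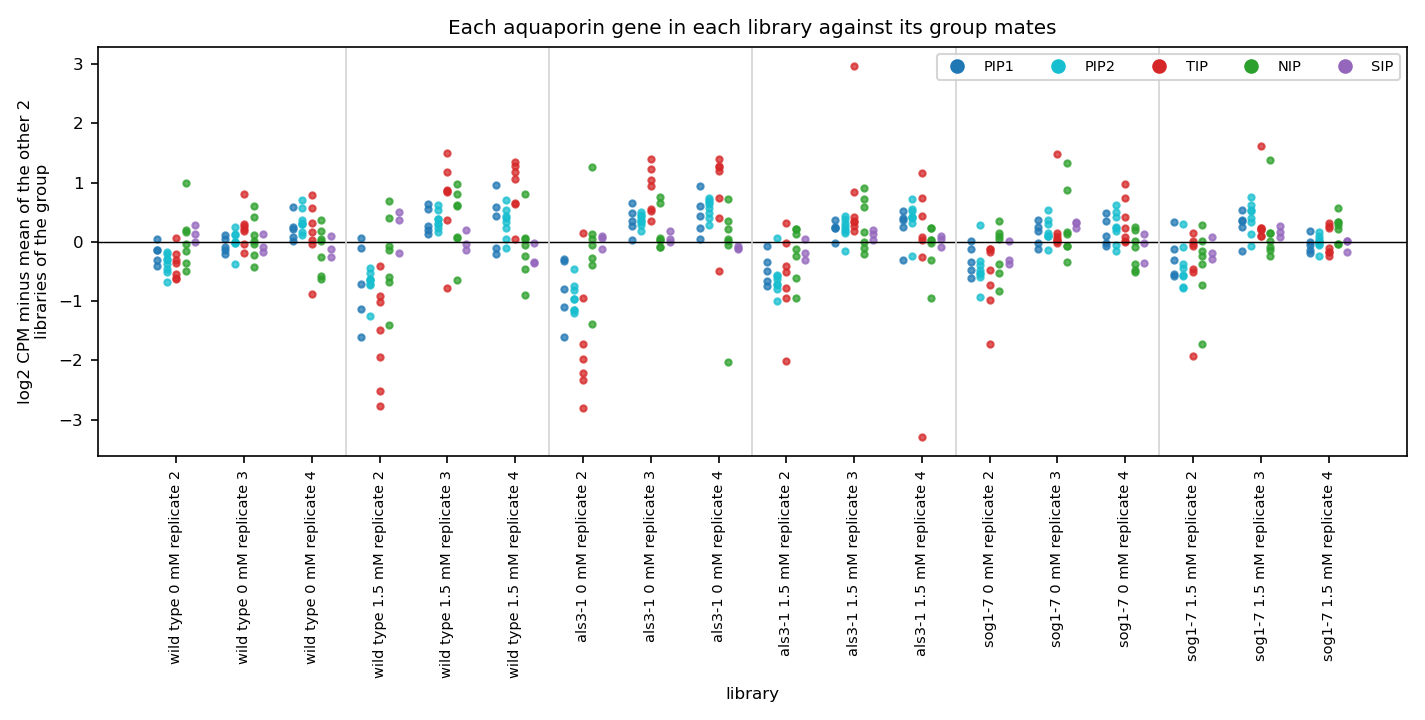
Each point is an aquaporin gene in a library, plotted as its log2 CPM minus the mean log2 CPM of the other 2 libraries of its group, coloured by subfamily, with libraries along the x axis. The TIP genes (red) fall lowest in wild type 1.5 mM replicate 2 and als3-1 0 mM replicate 2, with medians of −1.49 and −1.98.

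Levels of different genes were compared per length, with the deposited FPKM values (fragments per kilobase of gene, scaled to the mapped fragments). The family made up 0.306% to 0.745% of all FPKM in a library. The vacuolar TIPs held the largest share of the family's summed FPKM, 46.03% on average over the 18 libraries, followed by PIP2 with 27.44%, PIP1 with 20.5%, NIP with 3.647% and SIP with 2.381%. In wild type at 0 mM the summed FPKM was 1828 ± 287 for TIP, 969 ± 158 for PIP2, 702 ± 78.5 for PIP1, 104 ± 13.8 for NIP and 60.8 ± 3.26 for SIP (mean ± SD, n = 3). In als3-1 at 1.5 mM the corresponding sums were 1188 ± 186, 553 ± 69.9, 462 ± 40.8, 89.8 ± 7.87 and 62.5 ± 5.50 FPKM. The PIP1, PIP2 and TIP sums of these 2 groups did not overlap between libraries, and the NIP and SIP sums did, but these groups differ in both genotype and AlCl3. Within als3-1 the TIP sum was 1136 ± 718 FPKM at 0 mM and overlapped with that at 1.5 mM. The lowest TIP sums, 350.2 and 315 FPKM, were those of the libraries that stood apart, and the other 16 libraries lay between 997 and 2002 FPKM.

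**Figure D2:**
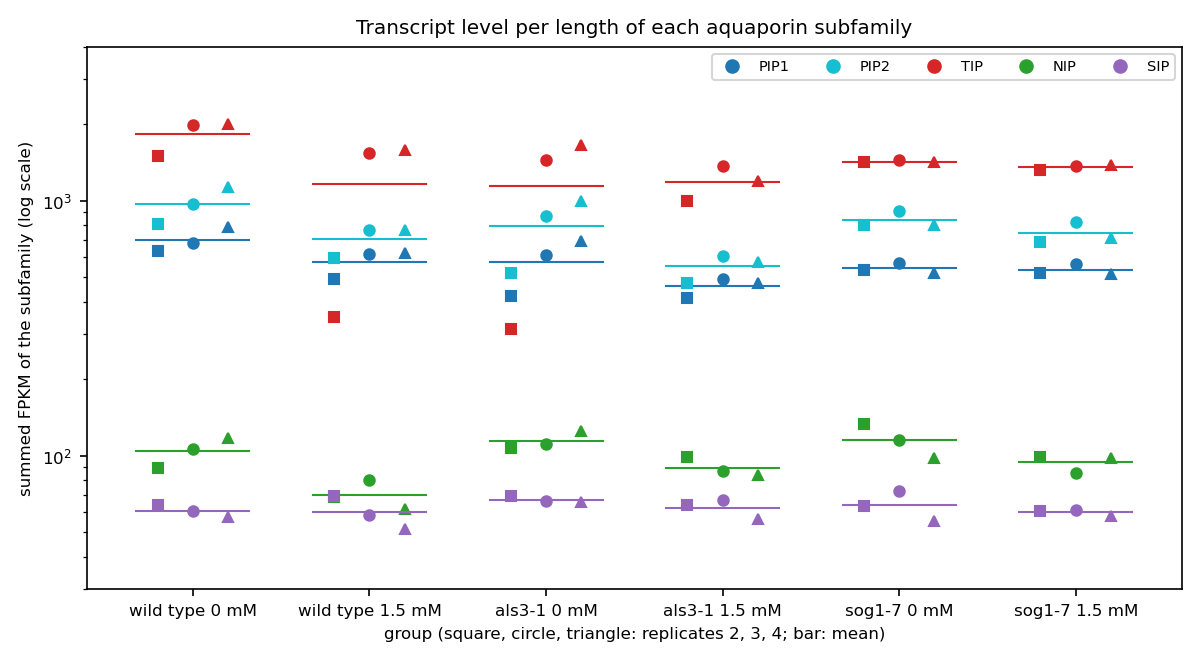
The summed FPKM of each aquaporin subfamily is plotted on a log axis for every library (squares, circles and triangles for replicates 2, 3 and 4) with the group mean as a bar. TIP genes lead in every group mean, and the squares of wild type 1.5 mM and als3-1 0 mM show the low TIP sums of 350.2 and 315 FPKM.

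A few genes carried most of the family's level. TIP1;2 had the highest mean FPKM of the 35 members over the 18 libraries (816), followed by TIP1;1 (329), PIP2;7 (302), PIP1;2 (262) and PIP2;1 (254). Among the NIPs the boric acid channel NIP5;1 led with a mean FPKM of 54.1, ahead of NIP1;1 (29.8) and NIP1;2 (7.88), and among the SIPs SIP1;1 led with 35.9. At the other end, 5 members did not pass the filter on low counts and were not tested. These were the seed gene TIP3;2 and the pollen genes NIP4;1, NIP4;2, TIP5;1 and TIP1;3, whose highest counts in a library were 0, 4, 2 and 11 for the pollen genes in that order. The remaining 30 members were tested in 9 comparisons.

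With 1.5 mM AlCl3 the main fit called aquaporin genes most often in als3-1, where 8 of 30 were called lower and 0 higher (edgeR's quasi-likelihood test, Benjamini-Hochberg adjusted p under 0.05 over all genes). Over all 21650 genes tested in that comparison, 6.29% were called lower and 4.56% higher. At an unadjusted p under 0.05, 3 members were higher and 10 lower, and DESeq2 called 1 higher and 8 lower. The genes called were PIP1;1, PIP1;5, PIP2;2, PIP2;3, PIP2;4, TIP2;2, TIP2;3 and NIP1;1. The 1.5 mM libraries lay below all 0 mM libraries of als3-1 for 10 of 30 members, against 15.1% of all genes. They lay above all of them for 2 members. Here and below, the share of all genes in that direction was not computed. The median log2 fold change of the 30 members was −0.24, against 0.0174 over all genes. In a fit of the 6 als3-1 libraries alone 3 of these calls (PIP1;5, PIP2;3 and TIP2;2) ended (edgeR adjusted p = 0.0602 to 0.127). They also ended without the 3 libraries of low ribosomal RNA content, which include als3-1 1.5 mM replicate 2 (edgeR adjusted p = 0.0579 to 0.0857). Without the libraries that stood apart 11 members were called lower. The fit with a replicate block called more members in all 3 genotypes, and nearly as many in wild type as in als3-1. Its counts are given in the last section. How far als3-1 exceeds wild type in the number of calls thus depends on the fit. Here and below, shares of all genes called are given for the main edgeR fit alone. Counts at an unadjusted p, by other tools or without some libraries therefore describe the family only and do not set it apart from other genes.

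In wild type, 1 of 30 members was called lower (NIP3;1) and 0 higher, where 0.988% of all genes were called lower and 0.896% higher. At an unadjusted p under 0.05, 15 were lower and 1 higher, DESeq2 called 7 lower and 0 higher, and limma on FPKM called 1 lower (PIP2;2) and 0 higher. The log2 fold change was below 0 for 28 of 30 members, with a lower median than in als3-1 at −0.49, against −0.00198 over all genes. The groups did not overlap, with 1.5 mM lower, for 14 members, against 7.81% of all genes, and with 1.5 mM higher for 0 members. Wild type 1.5 mM replicate 2 weighed on these values. Without it the median was −0.30 and the fold change was below 0 for 22 of 30 members, and 2 members, NIP1;1 and NIP3;1, were called lower. Without the replicate 2 library of every group, a choice made after seeing the data, 7 members were called lower in wild type. The fit with a replicate block also called more members there than the main fit, as given in the last section.

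In sog1-7, edgeR called 0 of 30 members in either direction, where it called 0.448% of all genes lower and 0.739% higher. At an unadjusted p under 0.05, 6 members were lower and 1 higher, DESeq2 called TIP2;3 lower and TIP3;1 higher, and limma on FPKM called 0. The median log2 fold change was −0.13, against −0.00477 over all genes. Libraries at 1.5 mM lay below all those at 0 mM for 7 members, against 6.68% of all genes, and above all those at 0 mM for 3 members. Without replicate 2 of every group, PIP2;2, TIP2;2 and TIP2;3 were called lower in sog1-7, and 11 members were called lower in als3-1.

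**Figure D3:**
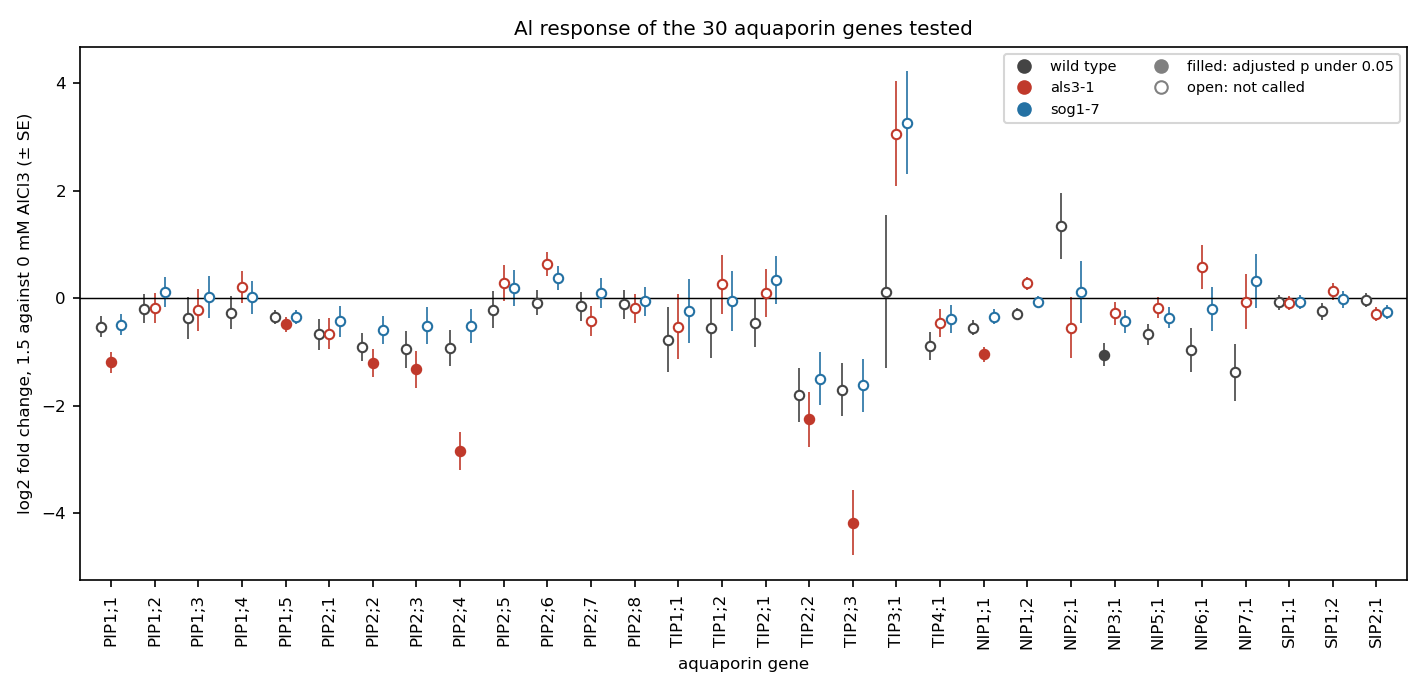
Log2 fold changes between 1.5 and 0 mM AlCl3 (± SE, edgeR) are plotted for the 30 tested aquaporin genes in wild type (grey), als3-1 (red) and sog1-7 (blue), with filled points for adjusted p under 0.05. The filled red points of als3-1 reach −2.85 for PIP2;4 and −4.17 for TIP2;3, and 1 grey point is filled.

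Of the 5 PIP1 genes, 2 fell with AlCl3 in als3-1. PIP1;1 (AT3G61430, chromosome 3, 22733243 to 22735394 on TAIR10), a root-abundant PIP1, fell most. It stood at 274, 279.7 and 323 CPM in wild type at 0 mM and at 209, 216 and 183 CPM at 1.5 mM. Its als3-1 levels were 201, 233 and 255 CPM at 0 mM and 72.1, 111 and 118 CPM at 1.5 mM. For sog1-7 the levels were 166, 206 and 261 CPM without and 129.5, 175 and 145 CPM with AlCl3. The als3-1 libraries with AlCl3 were the lowest of all 6 groups and did not overlap with any other library, and the highest values came from wild type without AlCl3. The log2 fold change with AlCl3 was −1.19 ± 0.19 (edgeR adjusted p = 0.000955) in als3-1, −0.53 ± 0.19 (edgeR adjusted p = 0.258) in wild type and −0.49 ± 0.19 (edgeR adjusted p = 0.391) in sog1-7. The wild type groups did not overlap, and those of sog1-7 did. Without the libraries of low ribosomal RNA content edgeR called the wild type fall, at −0.53 (edgeR adjusted p = 0.0478).

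PIP1;5 (AT4G23400, chromosome 4, 12220641 to 12222468) fell less. Wild type libraries stood at 80.1, 73.2 and 80.9 CPM without AlCl3 and at 58.8, 67.5 and 58.5 CPM with it. Those of als3-1 were at 39.7, 52.0 and 47.1 CPM and 31.7, 38.8 and 28.4 CPM in the same order. The sog1-7 libraries had 59.0, 55.5 and 61.3 CPM without and 53.2, 42.6 and 41.7 CPM with AlCl3. Wild type libraries without AlCl3 were the highest, and all als3-1 libraries lay below all of them. In als3-1 the gene fell with AlCl3 by 0.49 ± 0.13 log2 units (edgeR adjusted p = 0.0275), and this call ended without als3-1 0 mM replicate 3 or 4 or als3-1 1.5 mM replicate 2 or 4 (edgeR adjusted p = 0.0583 to 0.119). Its log2 fold changes of −0.34 ± 0.13 (edgeR adjusted p = 0.310) in wild type and −0.35 ± 0.13 (edgeR adjusted p = 0.352) in sog1-7 were not called, although neither pair of groups overlapped.

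PIP1;2 (AT2G45960, chromosome 2, 18910081 to 18911982), the PIP1 gene of the highest FPKM, did not pass the test in any Al response. Its wild type levels were 545, 642 and 707 CPM at 0 mM and 388, 609 and 662 CPM at 1.5 mM. Libraries of als3-1 had 297, 503 and 523 CPM at 0 mM and 267, 421 and 479 CPM at 1.5 mM. Libraries of sog1-7 had 255, 379 and 396 CPM at 0 mM and 283, 438 and 401 CPM at 1.5 mM. Replicate 2 was the lowest library in each of the 6 groups, and the groups with and without AlCl3 overlapped in all 3 genotypes. Its log2 fold change was −0.19 ± 0.28 (edgeR adjusted p = 0.940) in wild type, −0.18 ± 0.28 (edgeR adjusted p = 0.737) in als3-1 and 0.12 ± 0.28 (edgeR adjusted p = 1.00) in sog1-7. The remaining genes, PIP1;3 and PIP1;4, had Al log2 fold changes of −0.37 to 0.21 across the 3 genotypes.

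Among the 8 PIP2 genes, 3 fell with AlCl3 in als3-1. PIP2;4 (AT5G60660, chromosome 5, 24375368 to 24377206), a PIP2 of roots, had the largest fall of the 13 PIP genes. At 0 mM the wild type libraries had 17.4, 16.0 and 24.9 CPM, and at 1.5 mM 7.85, 13.4 and 9.51 CPM. In als3-1 the levels were 9.29, 19.4 and 21.9 CPM without and 1.74, 2.12 and 3.22 CPM with AlCl3. In sog1-7 the levels were 12.2, 21.4 and 24.9 CPM without and 13.0, 14.5 and 13.2 CPM with AlCl3. All 3 als3-1 libraries with AlCl3 lay far below the other 15, and the 6 sog1-7 libraries overlapped between the 2 AlCl3 levels. In als3-1 the mean went from 16.9 ± 6.67 to 2.36 ± 0.769 CPM (SD, n = 3), a fitted ratio of 0.139 and a log2 fold change of −2.85 ± 0.36 (edgeR adjusted p = 9.69e-05). The log2 fold change was −0.93 ± 0.33 (edgeR adjusted p = 0.234) in wild type, where the groups did not overlap, and −0.52 ± 0.32 (edgeR adjusted p = 0.816) in sog1-7.

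PIP2;2 (AT2G37170, chromosome 2, 15613368 to 15615022), a major PIP2 of roots, lies next to its near copy PIP2;3 (AT2G37180, chromosome 2, 15617635 to 15619155). It stood at 239, 275 and 318 CPM in wild type at 0 mM and at 119, 175 and 149.6 CPM at 1.5 mM. Its als3-1 levels were 121, 206 and 221 CPM at 0 mM and 55.1, 89.4 and 93.7 CPM at 1.5 mM. For sog1-7 the levels were 149, 205 and 247 CPM without and 107, 154 and 138 CPM with AlCl3. Its als3-1 libraries with AlCl3 lay below all others, and the group mean was highest in wild type without AlCl3. It had a log2 fold change of −1.20 ± 0.26 (edgeR adjusted p = 0.00734) in als3-1, −0.91 ± 0.26 (edgeR adjusted p = 0.102) in wild type and −0.59 ± 0.26 (edgeR adjusted p = 0.496) in sog1-7. In wild type the fall was called by DESeq2, at −0.91 (DESeq2 adjusted p = 0.0261), and by limma on log2(FPKM + 1), at −0.88 (limma adjusted p = 0.0415). EdgeR called it there without the libraries of low ribosomal RNA content, at −0.92 (edgeR adjusted p = 0.0400).

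PIP2;3 had a mean FPKM of 22.9, against 119 for its neighbour. Wild type libraries stood at 34.6, 47.0 and 65.7 CPM without AlCl3 and at 18.5, 28.8 and 29.2 CPM with it. Those of als3-1 were at 19.1, 41.1 and 46.6 CPM and 8.56, 16.6 and 17.6 CPM in the same order. The sog1-7 libraries had 33.0, 43.9 and 51.2 CPM without and 22.7, 37.6 and 29.6 CPM with AlCl3. It was again lowest in the als3-1 libraries with AlCl3. With AlCl3 the log2 fold change was −1.32 ± 0.35 (edgeR adjusted p = 0.0231) in als3-1, −0.95 ± 0.35 (edgeR adjusted p = 0.260) in wild type and −0.51 ± 0.34 (edgeR adjusted p = 0.862) in sog1-7. The als3-1 call ended without als3-1 0 mM replicate 3 or 4 or als3-1 1.5 mM replicate 2 or 3 (edgeR adjusted p = 0.0521 to 0.105). The coding sequences of the pair share a run of 242 identical bases, and how reads that match both were assigned is not given in the sources used here, so the split between them is uncertain.

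PIP2;7 (AT4G35100, chromosome 4, 16708361 to 16710407), the PIP2 of the highest FPKM, was not called with AlCl3. Its wild type levels were 504, 569.8 and 662 CPM at 0 mM and 379.9, 569 and 615 CPM at 1.5 mM. Libraries of als3-1 had 323, 535 and 550.3 CPM at 0 mM and 235, 382 and 431 CPM at 1.5 mM. Libraries of sog1-7 had 292, 446 and 409 CPM at 0 mM and 307, 509 and 410.5 CPM at 1.5 mM. The groups overlapped within each genotype, with replicate 2 lowest in every group. The log2 fold change with AlCl3 was −0.15 ± 0.27 (edgeR adjusted p = 0.958) in wild type, −0.43 ± 0.27 (edgeR adjusted p = 0.368) in als3-1 and 0.10 ± 0.27 (edgeR adjusted p = 1.00) in sog1-7. PIP2;1, another abundant PIP2 of roots and veins, had a log2 fold change of −0.66 ± 0.29 (edgeR adjusted p = 0.167) in als3-1, and without the libraries that stood apart it was called at −0.95 (edgeR adjusted p = 0.0187). In wild type it lay at −0.49 (edgeR adjusted p = 0.484) without those libraries. With all libraries the wild type mean of PIP2;1 went from 528 to 332 CPM, and these groups did not overlap. With all libraries and a correction for exon GC content, it lay at −0.65 in wild type (edgeR adjusted p = 0.315) and −0.65 in als3-1 (edgeR adjusted p = 0.126). Without replicate 2 of every group PIP2;1 was called lower in als3-1, at −0.77 (edgeR adjusted p = 0.00446), and in wild type, at −0.64 (edgeR adjusted p = 0.0200). The Al log2 fold changes of PIP2;5 and PIP2;8 lay between −0.22 and 0.29 in the 3 genotypes.

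PIP2;6 (AT2G39010, chromosome 2, 16291280 to 16294101) differed between genotypes without AlCl3. At 0 mM the wild type libraries had 99.4, 107 and 116 CPM, and at 1.5 mM 71.1, 107 and 127 CPM. In als3-1 the levels were 31.3, 58.6 and 63.9 CPM without and 81.7, 86.3 and 71.0 CPM with AlCl3. In sog1-7 the levels were 69.5, 57.0 and 56.7 CPM without and 90.9, 76.4 and 70.9 CPM with AlCl3. At 0 mM every library of both mutants lay below every wild type library. At 1.5 mM the mutants lay above their own 0 mM libraries, and wild type replicate 2 fell among the mutant values. At 0 mM the gene was lower than in wild type by a log2 fold change of −1.07 ± 0.23 (edgeR adjusted p = 0.0264) in als3-1 and −0.82 ± 0.23 (edgeR adjusted p = 0.0358) in sog1-7. The first call ended without wild type 0 mM replicate 3 or 4 or als3-1 0 mM replicate 2 or 3 (edgeR adjusted p = 0.0512 to 0.0850), and the second without wild type 0 mM replicate 2, 3 or 4 or sog1-7 0 mM replicate 3 or 4 (edgeR adjusted p = 0.0619 to 0.112). Its log2 fold change was 0.64 ± 0.23 (edgeR adjusted p = 0.0954) in als3-1, 0.38 ± 0.23 (edgeR adjusted p = 0.809) in sog1-7 and −0.08 ± 0.23 (edgeR adjusted p = 0.983) in wild type.

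**Figure D4:**
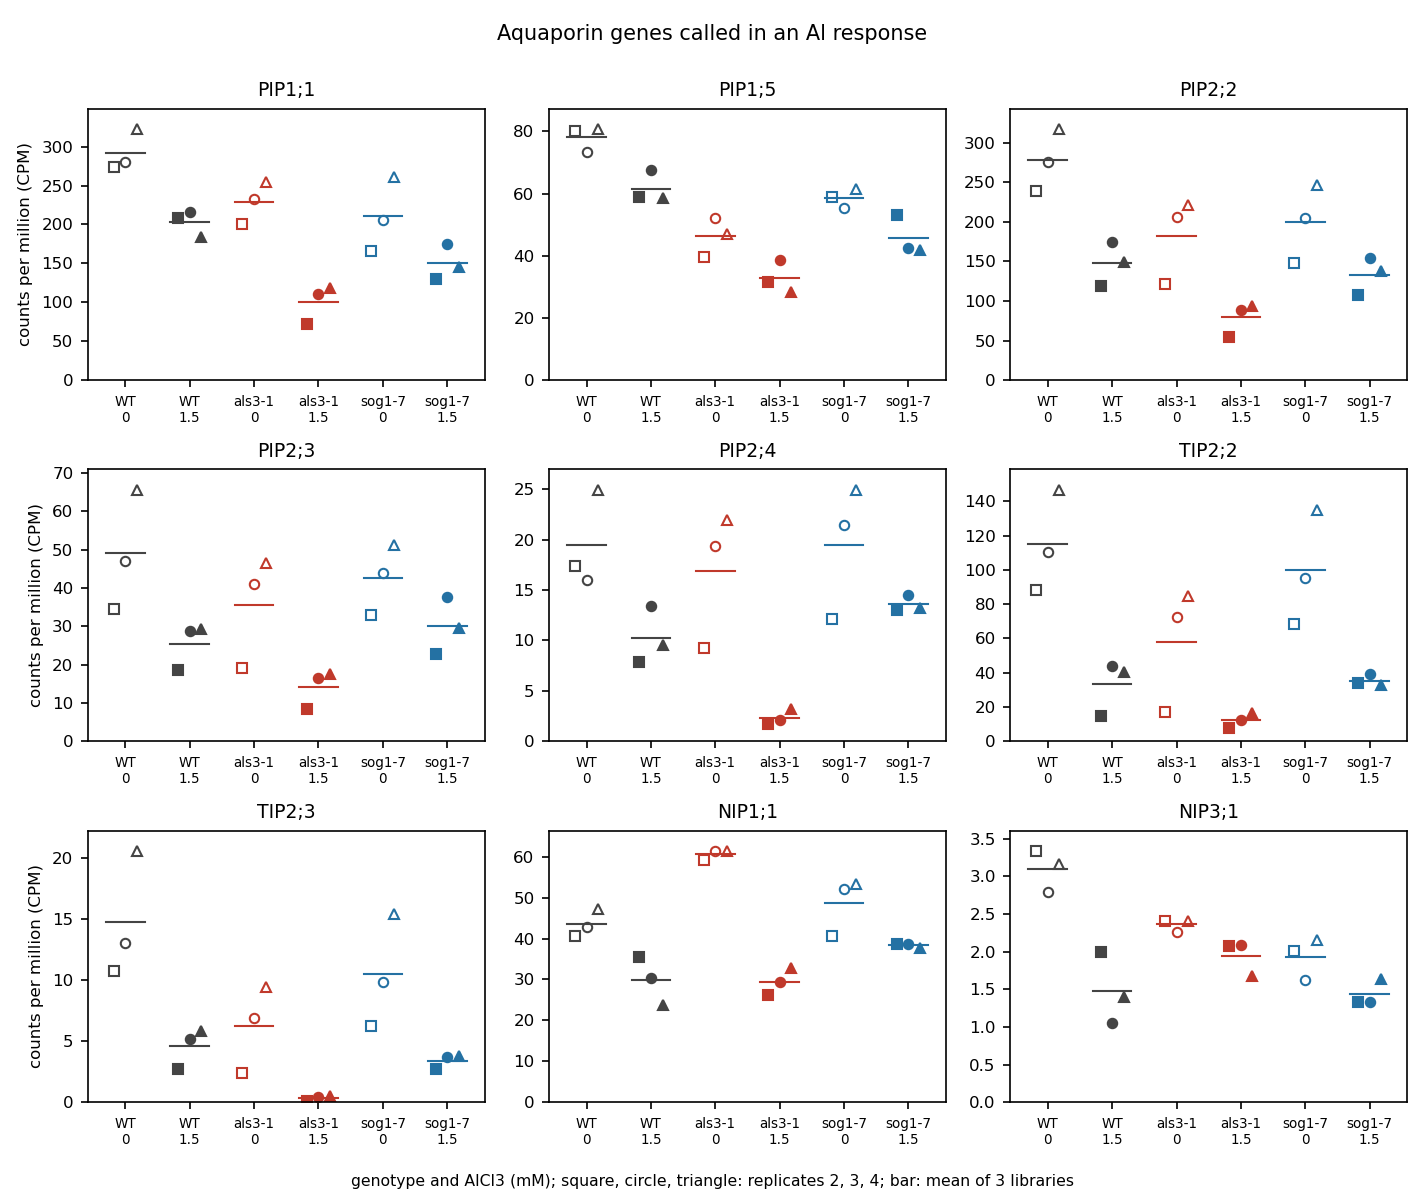
CPM of the 9 aquaporin genes called in an Al response is plotted for all 18 libraries by genotype and AlCl3 concentration, with open symbols at 0 mM, filled symbols at 1.5 mM and bars for group means. In als3-1 with AlCl3, PIP2;4 lies at 1.74 to 3.22 CPM and TIP2;3 at 0.0827 to 0.546 CPM, below every other library.

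In the TIP subfamily, TIP2;2 and TIP2;3 fell with AlCl3 in als3-1, the latter by the largest factor of all 30 members tested. Both are TIPs of the root vacuole, and their coding sequences have the same length of 753 bases and are 81.5% identical, with no identical run longer than 26 bases. The 250 bases before the annotated starts of these genes and of PIP2;4, the members with the largest falls, are shown from the RefSeq genome (TAIR10.1), 5′ to 3′ on the strand of the gene, with matches to the motifs searched in capitals. In the order printed, the windows are chr4:9698690-9698939 on the plus strand, chr5:19249623-19249872 on the minus strand and chr5:24377207-24377456 on the minus strand.
TIP2;2: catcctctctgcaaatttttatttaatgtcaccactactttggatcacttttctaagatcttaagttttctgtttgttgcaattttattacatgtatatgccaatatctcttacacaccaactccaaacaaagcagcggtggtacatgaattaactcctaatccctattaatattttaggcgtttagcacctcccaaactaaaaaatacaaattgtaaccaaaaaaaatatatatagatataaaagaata
TIP2;3: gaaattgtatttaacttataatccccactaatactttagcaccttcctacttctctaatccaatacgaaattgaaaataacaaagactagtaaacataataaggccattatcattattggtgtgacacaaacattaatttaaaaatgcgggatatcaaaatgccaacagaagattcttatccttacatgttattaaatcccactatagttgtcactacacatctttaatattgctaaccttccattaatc
PIP2;4: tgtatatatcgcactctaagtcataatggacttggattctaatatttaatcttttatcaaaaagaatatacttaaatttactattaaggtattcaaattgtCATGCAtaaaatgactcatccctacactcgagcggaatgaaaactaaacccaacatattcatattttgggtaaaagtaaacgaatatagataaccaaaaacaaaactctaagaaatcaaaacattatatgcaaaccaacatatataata

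The windows searched ran from 250 bases before to 50 bases after the start, on both strands, in the 35 members and in 27443 protein-coding genes. The SOG1-type motif, CTT and AAG with any 7 bases between them, was in 0 of 35 aquaporin windows and in 11.8% of all windows. The RY motif CATGCA, an element of seed promoters, was in 10 of 35 aquaporin windows and in 9.7% of all. Of the 8 genes called in als3-1, PIP1;1, PIP1;5, PIP2;4 and NIP1;1 held it. The core of the abscisic acid response element, ACGTG, was in 6 of 35 windows and 26.7% of all, and among the 8 called genes in TIP2;3, where it lies after the start. The G-box CACGTG, which contains ACGTG, was in 1 of 35 windows, that of TIP3;2, and in 7.7% of all. A match describes the letters and is no evidence of a bound factor, and an empty window says only that these letters are not in it.

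TIP2;3 (AT5G47450, chromosome 5, 19248249 to 19249622) passed from a few CPM to near the limit of detection. It stood at 10.8, 13.1 and 20.6 CPM in wild type at 0 mM and at 2.71, 5.16 and 5.88 CPM at 1.5 mM. Its als3-1 levels were 2.41, 6.92 and 9.43 CPM at 0 mM and 0.0827, 0.462 and 0.546 CPM at 1.5 mM. For sog1-7 the levels were 6.23, 9.89 and 15.4 CPM without and 2.72, 3.73 and 3.78 CPM with AlCl3. In als3-1 with AlCl3 the 3 libraries held 39 counts in all, against 689 at 0 mM, and they were the 3 lowest of the 18. Within each genotype the groups with and without AlCl3 did not overlap. It had a log2 fold change of −4.17 ± 0.61 (edgeR adjusted p = 0.000404) in als3-1, −1.70 ± 0.49 (edgeR adjusted p = 0.116) in wild type and −1.62 ± 0.49 (edgeR adjusted p = 0.174) in sog1-7. DESeq2 called it lower in wild type (DESeq2 adjusted p = 0.0264) and in sog1-7 (DESeq2 adjusted p = 0.0496). Without replicate 2 of every group edgeR did so too, at −1.61 (edgeR adjusted p = 0.0132) and −1.75 (edgeR adjusted p = 0.0162) in the same order. The als3-1 mean went from 6.25 ± 3.56 to 0.364 ± 0.247 CPM (SD, n = 3).

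TIP2;2 (AT4G17340, chromosome 4, 9698940 to 9700472) fell as well. Wild type libraries stood at 88.0, 111 and 147 CPM without AlCl3 and at 15.0, 44.0 and 40.5 CPM with it. Those of als3-1 were at 16.9, 72.4 and 84.5 CPM and 7.49, 12.7 and 16.4 CPM in the same order. The sog1-7 libraries had 68.4, 95.4 and 135 CPM without and 33.9, 39.1 and 32.6 CPM with AlCl3. The lowest values were those of als3-1 with AlCl3, with wild type 1.5 mM replicate 2 among them and als3-1 0 mM replicate 2 just above. Within each genotype the groups with and without AlCl3 did not overlap. With AlCl3 the log2 fold change was −2.25 ± 0.51 (edgeR adjusted p = 0.00942) in als3-1, −1.80 ± 0.50 (edgeR adjusted p = 0.0902) in wild type and −1.50 ± 0.49 (edgeR adjusted p = 0.231) in sog1-7. Without the libraries that stood apart, it was called lower in all 3 genotypes, at −2.69 (edgeR adjusted p = 0.000161), −1.45 (edgeR adjusted p = 0.0428) and −1.50 (edgeR adjusted p = 0.0135) in the same order. That als3-1 call of the full set ended without als3-1 1.5 mM replicate 2, at −1.99 (edgeR adjusted p = 0.0509). With all libraries DESeq2 called TIP2;2 lower in wild type, at −1.79 (DESeq2 adjusted p = 0.00765). EdgeR with a correction for exon GC content did so too, at −1.74 (edgeR adjusted p = 0.0399).

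TIP1;2 (AT3G26520, chromosome 3, 9722443 to 9723904), the most abundant aquaporin transcript per length, was not called in any comparison with all libraries. Its wild type levels were 1425, 1841 and 1823 CPM at 0 mM and 278, 1538 and 1658 CPM at 1.5 mM. Libraries of als3-1 had 267, 1275 and 1425 CPM at 0 mM and 799.6, 1338 and 1408 CPM at 1.5 mM. Libraries of sog1-7 had 950.2, 1203 and 1432 CPM at 0 mM and 899, 1265 and 1286 CPM at 1.5 mM. Replicate 2 of wild type at 1.5 mM and of als3-1 at 0 mM lay at 278 and 267 CPM, and the other 16 libraries lay between 799.6 and 1841 CPM. The log2 fold change with AlCl3 was −0.55 ± 0.56 (edgeR adjusted p = 0.893) in wild type, 0.26 ± 0.56 (edgeR adjusted p = 0.820) in als3-1 and −0.06 ± 0.56 (edgeR adjusted p = 1.00) in sog1-7. Without replicate 2 of every group it was called lower in sog1-7 than in wild type at 0 mM, at −0.45 (edgeR adjusted p = 0.0295). TIP1;1, its close relative, had an als3-1 log2 fold change of −0.53 ± 0.60 (edgeR adjusted p = 0.636), which became −1.01 (edgeR adjusted p = 0.00683) without the libraries that stood apart. TIP4;1, a TIP of roots, likewise moved in als3-1 from −0.46 ± 0.26 (edgeR adjusted p = 0.284) to −0.71 (edgeR adjusted p = 0.0131). Without the same libraries, the wild type log2 fold change was −0.29 (edgeR adjusted p = 0.786) for TIP1;1 and −0.63 (edgeR adjusted p = 0.0811) for TIP4;1. With all libraries the wild type mean of TIP1;1 went from 691 to 404 CPM, with replicate 2 at 82.8 CPM at 1.5 mM. Without replicate 2 of every group TIP1;1 lay at −0.47 (edgeR adjusted p = 0.0534) in wild type and −0.87 (edgeR adjusted p = 0.00204) in als3-1. The difference between these responses was not called (edgeR adjusted p = 0.434). With all libraries DESeq2 called TIP4;1 lower in wild type, at −0.88 (DESeq2 adjusted p = 0.0344), so its fall is not particular to als3-1.

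TIP2;1 (AT3G16240, chromosome 3, 5505360 to 5507050), the delta-TIP of vegetative vacuoles, differed by genotype at 0 mM and passed no test of the Al response. At 0 mM the wild type libraries had 330.1, 428 and 384 CPM, and at 1.5 mM 95.4, 352 and 383 CPM. In als3-1 the levels were 47.5, 209.8 and 168 CPM without and 125, 178 and 154 CPM with AlCl3. In sog1-7 the levels were 120.1, 139.6 and 131 CPM without and 165, 172 and 157 CPM with AlCl3. Apart from wild type 1.5 mM replicate 2, every wild type library lay above every library of both mutants. At 0 mM its log2 fold change against wild type was −1.55 ± 0.46 (edgeR adjusted p = 0.0425) in sog1-7 and −1.43 ± 0.46 (edgeR adjusted p = 0.119) in als3-1. Without the libraries that stood apart both were called, at −1.54 (edgeR adjusted p = 7.65e-05) and −1.01 (edgeR adjusted p = 0.0116). The sog1-7 call of the full set ended without wild type 0 mM replicate 2, 3 or 4 or sog1-7 0 mM replicate 2, 3 or 4 (edgeR adjusted p = 0.0699 to 0.115), and without the libraries of low ribosomal RNA content (edgeR adjusted p = 0.118). Its log2 fold change was −0.46 ± 0.45 (edgeR adjusted p = 0.883) in wild type, 0.10 ± 0.45 (edgeR adjusted p = 0.915) in als3-1 and 0.34 ± 0.45 (edgeR adjusted p = 1.00) in sog1-7. Its exons overlap those of antisense neighbours by 120 and 46 bases.

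TIP3;1 (AT1G73190, chromosome 1, 27521944 to 27523332), a TIP of the protein storage vacuoles of seeds, was near 0 in most libraries. It stood at 0.0795, 0.134 and 0.0310 CPM in wild type at 0 mM and at 0.0553, 0.0374 and 0.175 CPM at 1.5 mM. Its als3-1 levels were 0.147, 0.166 and 0.0945 CPM at 0 mM and 0.724, 2.61 and 0.0911 CPM at 1.5 mM. For sog1-7 the levels were 0.0216, 0.284 and 0.134 CPM without and 0.436, 2.48 and 1.33 CPM with AlCl3. High values occurred with AlCl3 in both mutants, but als3-1 1.5 mM replicate 4 stayed at the level of the 0 mM libraries, and no wild type library exceeded 0.175 CPM. It had a log2 fold change of 3.07 ± 0.98 (edgeR adjusted p = 0.0567) in als3-1, 3.27 ± 0.96 (edgeR adjusted p = 0.148) in sog1-7 and 0.12 ± 1.42 (edgeR adjusted p = 0.996) in wild type, and it passed the edgeR test in none of them. DESeq2 called it higher in both mutants. Without als3-1 1.5 mM replicate 4, edgeR called it higher in als3-1, at 3.60 (edgeR adjusted p = 0.0117). Its exons overlap those of an antisense gene by 290 bases. The second seed TIP, TIP3;2, was counted 41 times in als3-1 and 20 times in sog1-7 over the 3 libraries with AlCl3, with 33 and 12 of these in replicate 3.

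The summed level of 8 seed markers, among them storage proteins, oleosins and late embryogenesis genes, moved with this gene. It was 1.51, 2.15 and 1.61 CPM in wild type at 0 mM and 1.44, 1.98 and 1.47 CPM at 1.5 mM. In als3-1 it was 1.79, 4.43 and 2.31 CPM and 44.1, 85.5 and 1.58 CPM, and in sog1-7 3.06, 4.88 and 2.62 CPM and 7.31, 64.8 and 36.4 CPM. The same library, als3-1 1.5 mM replicate 4, stayed low in both measures. In als3-1, 5 of the 8 markers were called higher with AlCl3 and 0 lower (OLEO1, OLEO2, EM1, EM6 and PER1, edgeR), and none of the 8 was at 0 in every library. In sog1-7 edgeR called 0 of 8, with 5 higher at an unadjusted p under 0.05 and 3 called higher by DESeq2. The part of seed RNA in the TIP3;1 values was not tested. The 233 bases between the neighbouring gene and the annotated start of TIP3;1 (chr1:27521711-27521943, plus strand, RefSeq TAIR10.1) are shown because they hold the RY letters on both strands in 1 stretch (the first run of capitals) and an ACGTG core on the minus strand (the second).
TIP3;1: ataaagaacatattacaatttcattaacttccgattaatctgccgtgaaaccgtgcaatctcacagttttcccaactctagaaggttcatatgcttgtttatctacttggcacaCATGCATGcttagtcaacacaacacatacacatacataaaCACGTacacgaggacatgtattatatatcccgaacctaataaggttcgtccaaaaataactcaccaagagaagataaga

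In the NIP subfamily, the main fit called 1 gene lower with AlCl3 in als3-1 and another in wild type. NIP1;1 (AT4G19030, chromosome 4, 10421521 to 10423508), a plasma membrane channel known to pass arsenite, was lower in every library with AlCl3 than in any library of its genotype without. Wild type libraries stood at 40.5, 42.8 and 47.3 CPM without AlCl3 and at 35.4, 30.3 and 23.8 CPM with it. Those of als3-1 were at 59.2, 61.5 and 61.3 CPM and 26.2, 29.3 and 32.8 CPM in the same order. The sog1-7 libraries had 40.7, 52.2 and 53.3 CPM without and 38.7, 38.7 and 37.7 CPM with AlCl3. The als3-1 libraries without AlCl3 were the highest of all groups. With AlCl3 the log2 fold change was −1.04 ± 0.14 (edgeR adjusted p = 0.000165) in als3-1, −0.55 ± 0.14 (edgeR adjusted p = 0.0576) in wild type and −0.34 ± 0.14 (edgeR adjusted p = 0.410) in sog1-7. At 0 mM it lay at 0.48 ± 0.14 (edgeR adjusted p = 0.0794) in als3-1 against wild type, a comparison that shares the als3-1 libraries without AlCl3. DESeq2 called NIP1;1 higher there, at 0.48 (DESeq2 adjusted p = 0.0272), as did edgeR without the libraries of low ribosomal RNA content (edgeR adjusted p = 0.0412). Without wild type 1.5 mM replicate 2 the fall in wild type was called as well, at −0.69 (edgeR adjusted p = 0.0261). With all libraries DESeq2 called this wild type fall, at −0.55 (DESeq2 adjusted p = 0.0117). EdgeR also called it without the libraries of low ribosomal RNA content, at −0.55 (edgeR adjusted p = 0.0333).

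NIP3;1 (AT1G31885, chromosome 1, 11450315 to 11452068), which takes part in arsenite transport in roots, was low throughout. Its wild type levels were 3.34, 2.79 and 3.16 CPM at 0 mM and 1.99, 1.05 and 1.40 CPM at 1.5 mM. Libraries of als3-1 had 2.41, 2.26 and 2.41 CPM at 0 mM and 2.07, 2.09 and 1.67 CPM at 1.5 mM. Libraries of sog1-7 had 2.0, 1.63 and 2.15 CPM at 0 mM and 1.33, 1.34 and 1.64 CPM at 1.5 mM. Wild type without AlCl3 was the highest group and did not overlap with wild type with AlCl3, and the als3-1 groups did not overlap either. The log2 fold change with AlCl3 was −1.05 ± 0.22 (edgeR adjusted p = 0.0179) in wild type, −0.28 ± 0.21 (edgeR adjusted p = 0.452) in als3-1 and −0.42 ± 0.21 (edgeR adjusted p = 0.649) in sog1-7. The wild type call ended without wild type 0 mM replicate 2 or 4 or wild type 1.5 mM replicate 3 or 4 (edgeR adjusted p = 0.0568 to 0.0865), and in a fit of the 6 wild type libraries alone (edgeR adjusted p = 0.174).

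NIP1;2 (AT4G18910, chromosome 4, 10366044 to 10368510), the aluminium malate channel of the root plasma membrane, stayed between 9.53 and 15.7 CPM. At 0 mM the wild type libraries had 12.7, 13.1 and 13.0 CPM, and at 1.5 mM 9.93, 11.0 and 10.8 CPM. In als3-1 the levels were 10.3, 12 and 12.9 CPM without and 15.7, 12.9 and 14.1 CPM with AlCl3. In sog1-7 the levels were 11.5, 10.9 and 11.3 CPM without and 12.2, 9.53 and 10.5 CPM with AlCl3. With AlCl3, the wild type libraries lay below and the als3-1 libraries narrowly above those of their own genotype without AlCl3, while the sog1-7 groups overlapped. Its log2 fold change was −0.29 ± 0.12 (edgeR adjusted p = 0.347) in wild type, 0.28 ± 0.12 (edgeR adjusted p = 0.153) in als3-1 and −0.07 ± 0.12 (edgeR adjusted p = 1.00) in sog1-7, none of them called. At 1.5 mM it was higher in als3-1 than in sog1-7 by a log2 fold change of 0.40 ± 0.12 (edgeR adjusted p = 0.0495). This call ended without als3-1 1.5 mM replicate 2, 3 or 4 or sog1-7 1.5 mM replicate 3 or 4 (edgeR adjusted p = 0.0645 to 0.189), and with upper-quartile scaling (edgeR adjusted p = 0.0516) or without the libraries of low ribosomal RNA content (edgeR adjusted p = 0.0729).

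NIP5;1 (AT4G10380, chromosome 4, 6431161 to 6435396), the boric acid channel of the root surface and the NIP of the highest FPKM, was not called in the main fit. It stood at 135, 179 and 201 CPM in wild type at 0 mM and at 76.4, 139.6 and 108 CPM at 1.5 mM. Its als3-1 levels were 115, 139.7 and 162 CPM at 0 mM and 116, 117 and 136 CPM at 1.5 mM. For sog1-7 the levels were 166, 150.1 and 149 CPM without and 107, 115 and 139 CPM with AlCl3. In sog1-7 the groups did not overlap, and in wild type and als3-1 they did. It had a log2 fold change of −0.67 ± 0.20 (edgeR adjusted p = 0.125) in wild type, −0.17 ± 0.20 (edgeR adjusted p = 0.633) in als3-1 and −0.36 ± 0.20 (edgeR adjusted p = 0.723) in sog1-7. The wild type fall was called without wild type 1.5 mM replicate 3, at −0.90 (edgeR adjusted p = 0.0432). With all libraries DESeq2 called it, at −0.67 (DESeq2 adjusted p = 0.0455). NIP2;1, NIP6;1 and NIP7;1 stood at a mean FPKM of 2.96, 1.73 and 0.167 and were called in none of the 3 Al responses, with log2 fold changes between −1.38 and 1.34. The first, a lactic acid channel induced by low oxygen, shares 838 of its 1403 exon bases with an antisense gene, and its counts per length were 0.318 of its FPKM, so its level is uncertain.

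**Figure D5:**
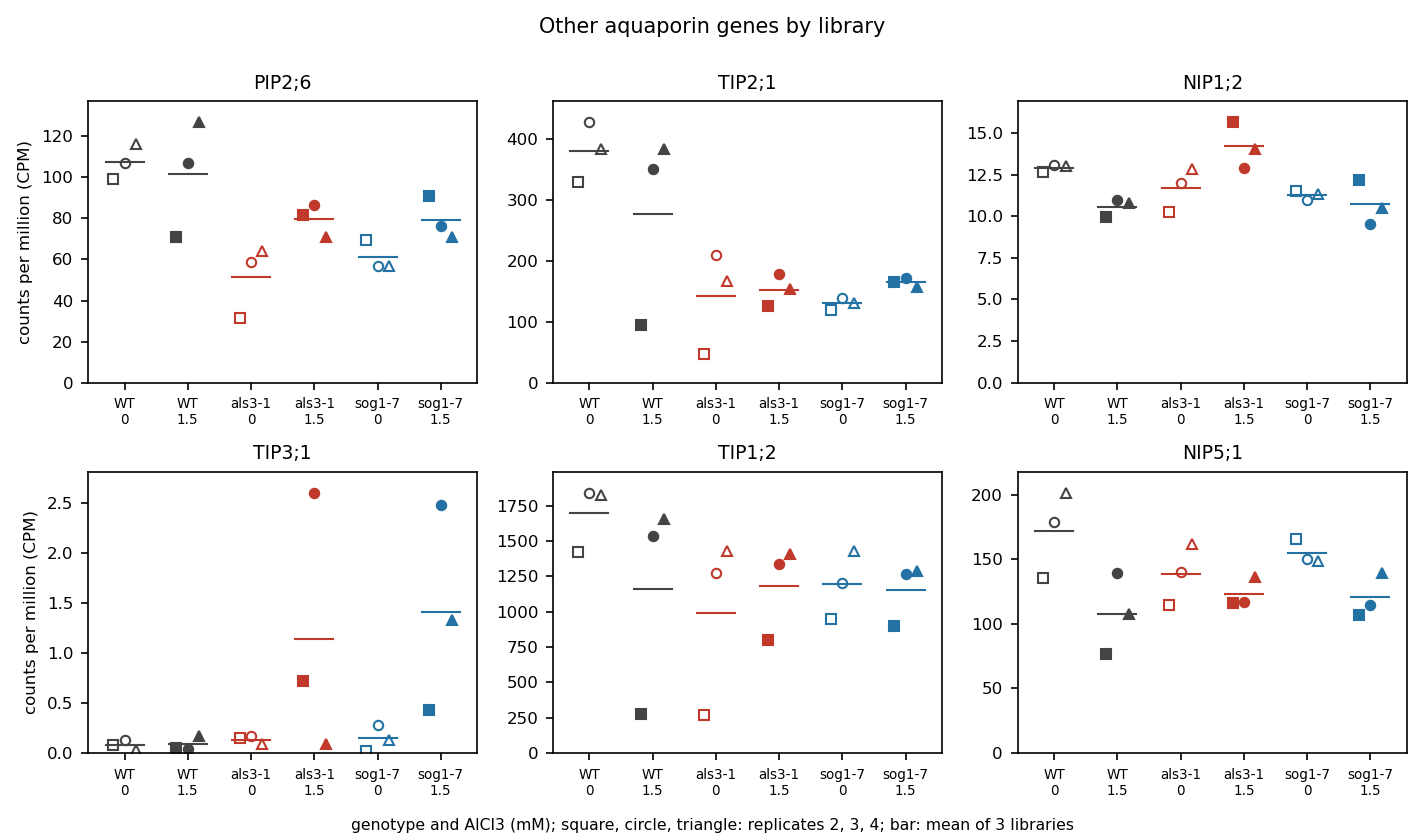
CPM is plotted for 6 further aquaporin genes in all 18 libraries, with open symbols at 0 mM, filled symbols at 1.5 mM AlCl3 and bars for group means. PIP2;6 and TIP2;1 are lower in both mutants than in wild type at 0 mM, and TIP1;2 shows the low squares of 278 and 267 CPM.

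The SIPs of the endoplasmic reticulum had the narrowest range of responses of the 5 subfamilies. SIP1;1 (AT3G04090, chromosome 3, 1071984 to 1074244) had the highest FPKM of the 3. Wild type libraries stood at 62.3, 62.5 and 52.2 CPM without AlCl3 and at 51.3, 61.3 and 55.4 CPM with it. Those of als3-1 were at 52.5, 60.6 and 53.8 CPM and 45.2, 57.4 and 54.6 CPM in the same order. The sog1-7 libraries had 44.9, 60.1 and 51.5 CPM without and 43.4, 56.2 and 49.9 CPM with AlCl3. The groups overlapped in every genotype. With AlCl3 the log2 fold change was −0.08 ± 0.14 (edgeR adjusted p = 0.956) in wild type, −0.09 ± 0.14 (edgeR adjusted p = 0.739) in als3-1 and −0.07 ± 0.14 (edgeR adjusted p = 1.00) in sog1-7. Over the 3 SIP genes and 3 genotypes the log2 fold changes ran from −0.29 to 0.13, and 0 were called by edgeR or DESeq2, with 1 at an unadjusted p under 0.05 (SIP2;1 in als3-1).

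Differences between the Al responses of the genotypes were tested as such, since a call in als3-1 and none elsewhere does not show a difference. Between als3-1 and sog1-7, 1 of 30 members differed, against 1.15% of all genes. PIP2;4 fell more in als3-1 by a log2 difference of −2.33 ± 0.47 (edgeR adjusted p = 0.0212), and the call ended without als3-1 0 mM replicate 3 or 4, als3-1 1.5 mM replicate 2 or 3 or sog1-7 1.5 mM replicate 3 (edgeR adjusted p = 0.05002 to 0.0735). It also ended in a fit of the als3-1 and sog1-7 libraries alone (edgeR adjusted p = 0.0560) and without the libraries of low ribosomal RNA content, at −1.92 (edgeR adjusted p = 0.199). The corresponding log2 difference was −2.55 ± 0.78 (edgeR adjusted p = 0.196) for TIP2;3 and −0.70 ± 0.19 (edgeR adjusted p = 0.131) for NIP1;1, and DESeq2 called all 3. Between als3-1 and wild type edgeR called 0 of 30 members, against 0.402% of all genes, with 9 at an unadjusted p under 0.05 and 1 called by DESeq2 (PIP2;4). Its log2 difference was −1.92 ± 0.47 (edgeR adjusted p = 0.127), and that of TIP2;3 was −2.47 ± 0.78 (edgeR adjusted p = 0.311). The first was called without als3-1 0 mM replicate 2, at −2.22 (edgeR adjusted p = 0.0391), and without both libraries that stood apart, at −2.38 (edgeR adjusted p = 0.0437). Between sog1-7 and wild type edgeR and DESeq2 called 0 members, against 0.00462% of all genes, with 1 at an unadjusted p under 0.05.

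Side by side at 1.5 mM, 4 of 30 members differed between als3-1 and sog1-7, against 6.69% of all genes. PIP2;4 lay at a log2 fold change of −2.54 ± 0.35 (edgeR adjusted p = 0.000473) in als3-1 against sog1-7, TIP2;3 at −3.29 ± 0.61 (edgeR adjusted p = 0.00416) and PIP1;5 at −0.48 ± 0.13 (edgeR adjusted p = 0.0436), and NIP1;2 was the gene that was higher. The third of these calls ended without als3-1 1.5 mM replicate 2 or 4 or sog1-7 1.5 mM replicate 2, 3 or 4 (edgeR adjusted p = 0.0674 to 0.140), and without the libraries of low ribosomal RNA content at −0.33 (edgeR adjusted p = 0.258). Without the libraries that stood apart TIP2;2 at −1.53 (edgeR adjusted p = 0.00594) and PIP2;3 at −1.07 (edgeR adjusted p = 0.0383) were also called lower in als3-1. At 0 mM, 2 of 30 members differed between als3-1 and wild type, against 2.32% of all genes, and these were PIP1;5 at −0.76 ± 0.13 (edgeR adjusted p = 0.00910) and PIP2;6. DESeq2 called 4 lower and 1 higher there, with NIP6;1, a gene of low level, lower at −1.61 (DESeq2 adjusted p = 0.00616). EdgeR called NIP6;1 lower with the GC correction, at −1.32 (edgeR adjusted p = 0.00770), but not without the libraries that stood apart, at −1.27 (edgeR adjusted p = 0.0754). Between sog1-7 and wild type at 0 mM, 2 of 30 differed, PIP2;6 and TIP2;1, against 10.2% of all genes. Without the libraries that stood apart 5 were called lower in sog1-7, adding PIP1;2 at −0.87 (edgeR adjusted p = 0.0273), PIP1;5 at −0.41 (edgeR adjusted p = 0.0489) and NIP3;1 at −0.68 (edgeR adjusted p = 0.0314). On the scale of log2(FPKM + 1) the median of all genes itself lay at 0.131 and 0.157 in the comparisons of als3-1 and sog1-7 with wild type at 0 mM. On that scale limma called 0 members in both, with PIP2;6 at −0.95 and −0.59. At 0 mM, green shoot markers moved with these differences, with 4 of 6 called lower in als3-1 and 5 of 6 in sog1-7 (edgeR). Their summed level was 25680 to 32030 CPM in wild type, 10160 to 18220 CPM in als3-1 and 5564 to 10460 CPM in sog1-7, and no marker was at 0 in every library. The part of shoot tissue in these values was not tested.

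Root markers were read beside the falls in als3-1. Of 13 root and root cap markers, 4 were called lower with AlCl3 in als3-1 and 0 higher (edgeR), with 7 lower at an unadjusted p under 0.05. Among these were BGLU21 at a log2 fold change of −1.07 ± 0.20 (edgeR adjusted p = 0.00295) and BGLU22 at −1.32 ± 0.26 (edgeR adjusted p = 0.00437), both beta-glucosidases of roots, and SMB, a root cap regulator, at −0.78 ± 0.22 (edgeR adjusted p = 0.0299). PYK10, a beta-glucosidase, made up 86.9% to 96.5% of the summed root marker level, which was 6298, 7225 and 8377 CPM at 0 mM and 5581, 8002 and 9140 CPM at 1.5 mM in als3-1, and these groups overlapped. Without PYK10 the sum of the other 12 was 703, 554 and 545 CPM at 0 mM and 283, 285 and 321 CPM at 1.5 mM in als3-1, with no overlap. Most of this sum was BGLU21 and BGLU22, so it does not describe the remaining markers. In als3-1 BGLU21 was at 394, 264 and 246 CPM at 0 mM and 148.5, 130 and 151 CPM at 1.5 mM. BGLU22 was at 227, 168 and 186 CPM and 70.0, 65.2 and 97.9 CPM in the same order. In the difference als3-1 minus sog1-7 edgeR called 2 of the 13 lower and 0 higher, and at 1.5 mM it called 3 lower and 0 higher in als3-1 than in sog1-7, the comparisons in which PIP2;4 was also called. No root marker was at 0 in every library. In wild type and in sog1-7 edgeR and DESeq2 called 0 of the 13, with 4 lower in wild type and 2 higher in sog1-7 at an unadjusted p under 0.05. The part of root cell number in the aquaporin values was not tested.

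Genes that work beside aquaporins were read from lists of textbook genes. Of 5 tested boron exporters, BOR1, which loads boron into the xylem behind NIP5;1, fell in wild type by a log2 fold change of −1.15 ± 0.15 (edgeR adjusted p = 0.000493) and in als3-1 by −0.85 ± 0.15 (edgeR adjusted p = 0.00138). In sog1-7 the log2 fold change of BOR1 was −0.46 ± 0.14 (edgeR adjusted p = 0.196). BOR1 stood at 96.1, 110.2 and 124 CPM in wild type at 0 mM and at 50.6, 49.6 and 49.0 CPM at 1.5 mM, with no overlap. BOR4, an exporter of excess boron, fell in als3-1 at −0.87 ± 0.21 (edgeR adjusted p = 0.0154). Of 3 tested ammonium transporters, AMT1;3 of the root surface fell in wild type at −1.72 ± 0.33 (edgeR adjusted p = 0.0109) and in als3-1 at −1.06 ± 0.32 (edgeR adjusted p = 0.0462), and AMT2;1 rose in als3-1 at 0.61 ± 0.18 (edgeR adjusted p = 0.0406). In sog1-7 edgeR called 0 of the 5 boron exporters and 0 of the 3 ammonium transporters, with 2 of each lower at an unadjusted p under 0.05 and 1 of each called lower by DESeq2.

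The plasma membrane proton pumps (10 tested), the tonoplast proton pumps (4 tested) and genes of PIP trafficking and control (11 tested) had 0 calls in the 3 Al responses by edgeR and by DESeq2. At an unadjusted p under 0.05 the plasma membrane pumps counted 2 higher in wild type, 1 lower in als3-1 and 2 higher and 1 lower in sog1-7, the PIP control genes 1 lower in wild type and 1 in each direction in als3-1, and the tonoplast pumps 0. The pump gene AHA4 was higher at 0 mM in als3-1 at 1.37 ± 0.31 (edgeR adjusted p = 0.0301) and in sog1-7 at 1.71 ± 0.31 (edgeR adjusted p = 0.00294). Of the 2 aluminium genes listed beside NIP1;2, the malate transporter ALMT1 rose with AlCl3 in all 3 genotypes. It stood at 7.52 to 11.9 CPM in wild type and 60.6 to 79.8 CPM in als3-1 at 0 mM, where it was called higher in als3-1 (edgeR adjusted p = 4.48e-06), and at 116 to 144 and 144 to 170.3 CPM at 1.5 mM. Its log2 fold changes with AlCl3 were 3.72 ± 0.20 (edgeR adjusted p = 1.10e-07) in wild type, 1.18 ± 0.18 (edgeR adjusted p = 0.000544) in als3-1 and 3.74 ± 0.20 (edgeR adjusted p = 7.32e-08) in sog1-7. ALS1, a transporter of the vacuole membrane, rose in als3-1 at 0.31 ± 0.09 (edgeR adjusted p = 0.0277).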

How the data were processed

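Per the labels' protocols, polyA RNA of whole seedlings went into directional libraries. The authors deposited whole-number counts per gene and FPKM values per gene for each of the 18 libraries. The submitters' processing notes name FastQC 0.11.7, STAR 2.7.3a, featureCounts 2.0.0, Cufflinks 2.2.1, DESeq2 1.36.0 and the build TAIR10. How the counting treated strand and reads with several matches, and which annotation it used, is not given in the sources used here. Total counts were 25561124 to 44572947 per library, and a floor of 3 counts covers counting error only.

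Counts were fitted with edgeR 4.0.16 (R 4.3.3): TMM scaling, filterByExpr by group (21650 of 32833 genes kept), 1 mean per group over all 18 libraries, a robust quasi-likelihood test and Benjamini-Hochberg adjustment over all genes tested, with calls at an adjusted p under 0.05. The biological coefficient of variation common to all genes was 0.214. CPM values are TMM-scaled, and FPKM values served for levels between genes. The scripts were tested on simulated data.

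The family, the 9 lists of other genes (67 genes) and the tests were chosen with earlier results of these data known. Values of every library are given for members called in at least 1 of the 9 comparisons, for NIP1;2 and for the member of highest mean FPKM of each subfamily. TIP3;1 was added after its values were seen. Other members are given by range. Alternatives were DESeq2 1.42.0, its size factors, upper-quartile scaling, no filter, a replicate block, the compared groups alone, limma 3.58.1 on log2(FPKM + 1) and log2(FPKM + 0.1), leaving out single libraries and leaving out the libraries of low ribosomal RNA content. Leaving out both libraries that stood apart, leaving out replicate 2 of every group and a GC correction were chosen after seeing the data.

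No pair of libraries of a group agreed within counting noise (lowest chi-square per degree of freedom 16.96 over 18 pairs). Promoters were read from the RefSeq genome TAIR10.1, where all 35 members have the same start and end as in the FPKM files, and coding sequences were aligned with Biopython 1.88. Protein sequences were not analysed here. The values of 1 root marker are not reported here.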

Additional observations from a re-analysis of the deposited data

Results flagged for a closer look

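The Al response of PIP2;4, a plasma membrane aquaporin of roots, differed between als3-1 and sog1-7 by −2.33 ± 0.47 on the log2 scale (edgeR adjusted p = 0.0212 over all genes). The test of the difference itself brought it here. The fall with AlCl3 was seen in 3 of 3 als3-1 libraries, which lay below all 15 others. These are values of the test itself and add no separate support to it. As given above, the call of the difference ended when some single libraries were left out. It also ended in a fit of the als3-1 and sog1-7 libraries alone and without the libraries of low ribosomal RNA content. No other aquaporin gene had a difference between Al responses called by edgeR without a replicate block. With the block TIP2;3 was called too, at −2.57 against sog1-7 (edgeR adjusted p = 0.00465) and −2.38 against wild type (edgeR adjusted p = 0.0160), and the difference of PIP2;4 against wild type at −1.88 (edgeR adjusted p = 0.0194).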

How the results depend on the processing

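Counts of aquaporin genes called by edgeR changed most where few calls were made. The comparisons are named in the order wild type, als3-1 and sog1-7 Al response, then the differences als3-1 minus wild type and als3-1 minus sog1-7, then als3-1 and sog1-7 against wild type at 0 mM and als3-1 against sog1-7 at 1.5 mM, and values stand where a count moved by over 1.5 times. The main counts were 1, 8, 0, 0, 1, 2, 2 and 4. DESeq2 called 7 in wild type, 2 in sog1-7, 1 and 3 in the differences, 5 and 5 at 0 mM and 7 at 1.5 mM. With the replicate block the counts were 10, 11, 4, 2, 2, 9, 9 and 9. Of 45 same-numbered pairs of libraries, 43 had a correlation of deviations over 0.1 (range −0.0496 to 0.755), and all 18 libraries correlated best with a library of their own number. This is a hint of a shared replicate effect from the data, while the labels give the numbers no meaning and 2 pairs missed the threshold, so the fit without the block was kept. Its p-values leave any such effect in the spread among libraries, and members not called by it can be called with the block. With the groups compared alone the counts were 0 in wild type, 5 in als3-1, 0 for als3-1 minus sog1-7 and 1 for als3-1 at 0 mM. Without the libraries of low ribosomal RNA content they were 4 in wild type, 0 for als3-1 minus sog1-7, 4 and 1 at 0 mM and 2 at 1.5 mM. With no filter on low counts they were 1 for sog1-7 at 0 mM and 2 at 1.5 mM, and limma on FPKM called 0 and 0 at 0 mM with either pseudocount. Leaving out single libraries gave 0 to 2, 5 to 9, 0 to 0, 0 to 1, 0 to 1, 1 to 2, 0 to 1 and 2 to 3. Alternatives added after seeing the data gave 3, 1, 1 and 5 in wild type, sog1-7, als3-1 minus wild type and sog1-7 at 0 mM without both libraries that stood apart. The GC correction gave 2 in wild type and 4 for sog1-7 at 0 mM. Without replicate 2 of every group the counts were 7 in wild type, 3 in sog1-7, 5 and 7 at 0 mM and 7 at 1.5 mM. The causes were not tested. No called gene changed sign under any alternative run. At low counts, as for TIP2;3 with 39 counts in als3-1 with AlCl3, depth limits the size of the fold change.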
